A study of Homo sapiens with 6 samples.

Results

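The shared response of HCC827 and H1975 to AL-X was taken from 4 of the 6 libraries in a study of lung cancer lines: the AL-X and solvent libraries of HCC827, and the same pair of H1975. The members are fixed by the labels alone, and A549, the third line of the study, is left out. AL-X is a code name for 9α,11α-dihydroxy-kaurenoic acid. Cells were exposed to 10 µg/mL of it for 48 h, and the controls received the solvent DMSO for 48 h. The labels give the genotype of all lines as WT. HCC827 and H1975 are established lung adenocarcinoma lines that carry activating mutations of the EGFR gene, and H1975 also carries a resistance mutation in it. Each line gave 1 library per treatment, so the replicate of the shared response is the line; the labels do not say how many cultures went into a library.

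EGFR is a receptor tyrosine kinase whose ligands, among them HBEGF, AREG and EREG, drive the RAS and ERK cascade; ERK switches on its own inhibitors, such as the DUSP phosphatases and Sprouty proteins. Cells that meet amino acid shortage, misfolded protein or failing mitochondria phosphorylate the initiation factor eIF2, which favours translation of ATF4 and then transcription of DDIT3, ATF3 and TRIB3 (the integrated stress response). Electrophiles and oxidants instead release NRF2 from KEAP1, and NRF2 with small MAF proteins binds antioxidant response elements in genes such as HMOX1 and GCLM. Mitochondrial DNA is transcribed by its own polymerase, POLRMT, into polycistronic RNAs that are cut into mRNAs, tRNAs and rRNAs.

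Library totals were 126840915 counts (HCC827, DMSO), 98139178 (HCC827, AL-X), 104648304 (H1975, DMSO) and 112133896 (H1975, AL-X). The H1975 AL-X library stood apart: 24278 genes had a count in it, against 26694 to 27874 in the other 3, and its TMM scaling factor was 0.801 against 1.04 to 1.10. Across 10428 protein-coding genes, the log2 fold in H1975 was lower the longer the exonic sequence of a gene (Spearman rho -0.358), with a rho of -0.0573 in HCC827. Both lines expressed epithelial genes: KRT7, KRT8, KRT18, EPCAM and CDH1 were at 220 CPM (counts per 1e6 after TMM scaling) or more in all 4 libraries. Lung lineage genes were uneven: NKX2-1 was at 278 CPM in HCC827 and 154 CPM in H1975 with DMSO, whereas SFTPA1, SFTPB and FOXA1 were under 1 CPM in H1975 and SFTPC had 0 counts in both lines. Of 16 markers of blood, endothelial and fibroblast cells, PTPRC and CD3E had 0 counts throughout. CD68, a lysosomal protein, was the only one of the 16 at 5 CPM or more (78.2 and 431 CPM in HCC827, 88.2 and 59.2 in H1975), and the other 15 together came to between 4.49 and 10.5 CPM in each library.

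In the comparison over both lines, 65 genes were higher with AL-X and 78 were lower at an adjusted p under 0.05 (edgeR quasi-likelihood test with the line as a block and Benjamini-Hochberg adjustment). That is 0.308% and 0.369% of the 21133 genes tested. At an unadjusted p under 0.05, edgeR counted 625 higher and 1160 lower. All 143 called genes were at 2-fold or more in the same direction in both lines, the smallest shared change being 4.35-fold among those higher and 4.43-fold among those lower. Because 1 degree of freedom remains, a gene's own error in this test is the disagreement of 2 lines. The robust fit of edgeR shrinks that error toward a trend over all genes tested. Without the line as a block edgeR called 0 genes (755 at an unadjusted p under 0.05), and without a filter on low counts it called 0 (1318 unadjusted). With library totals as the only scaling, 21 higher and 35 lower genes were called, all of them among the 143. A549 does not enter these tests, so they do not say whether a response is particular to lines with mutant EGFR.

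**Figure D1:**
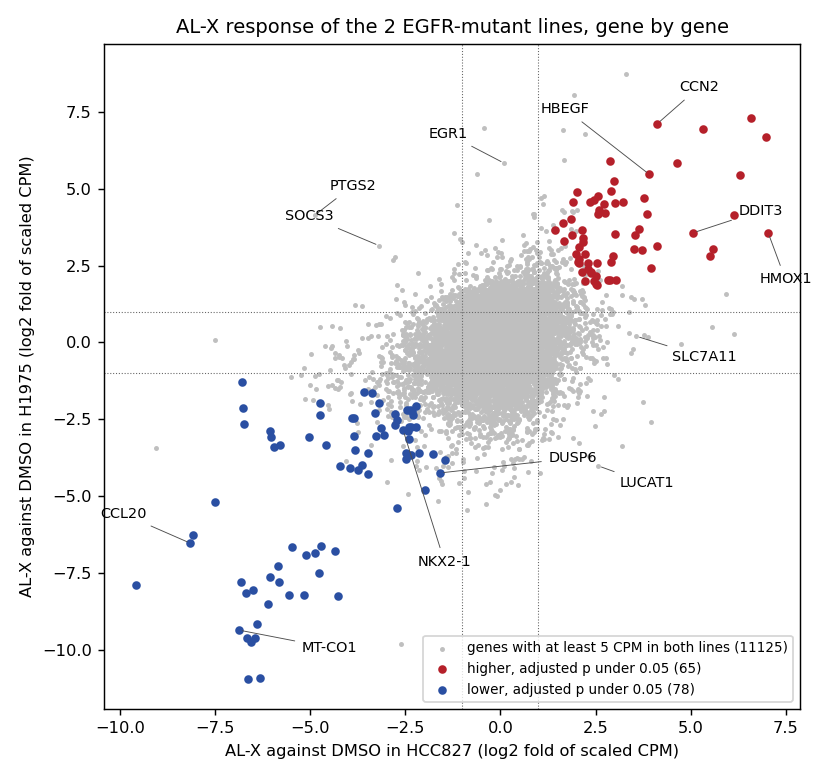
Each point is a gene that reached 5 CPM in both lines, or a called gene. The axes give its log2 fold of TMM-scaled CPM, AL-X against DMSO, in HCC827 (horizontal) and H1975 (vertical), and dotted lines mark 2-fold. The 65 called higher genes (red) lie at the upper right and the 78 called lower genes (blue) at the lower left, while PTGS2, SOCS3 and LUCAT1 lie in the other corners.

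Most genes of the integrated stress response were higher in both lines. Of 14 members tested, 6 were called higher (DDIT3, ATF3, PPP1R15A, TRIB3, SESN2 and GDF15) and 0 lower. Of all genes tested, 0.308% were called higher. Above 0 in both lines were 10 of the 13 members at 5 CPM, against 3451 of all 11125 such genes. The others were ATF4, ATF5 (-0.36 in HCC827 and 0.12 in H1975) and VLDLR (1.76 and -2.10). The median log2 fold over the 13 members with at least 5 CPM in both lines was 2.06 in HCC827 and 2.44 in H1975, against 0.02 and 0.12 for all 11125 such genes. DDIT3 (GENCODE 29 on GRCh38, chr12:57516588-57521737, minus strand), which encodes the stress transcription factor CHOP, went from 6.27 to 212 CPM in HCC827 and from 18.7 to 223 CPM in H1975. The AL-X libraries of both lines thus reached much the same level from different starting points. Its shared log2 fold was 4.32 (SE 0.61, edgeR adjusted p = 0.000199).

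ATF3, a repressor in the same pathway, went from 21.5 to 202 CPM in HCC827 and from 5.84 to 138 CPM in H1975 (shared log2 fold 3.90, SE 0.58, edgeR adjusted p = 0.00045). PPP1R15A encodes the phosphatase subunit GADD34 that reverses eIF2 phosphorylation. It rose from 43.9 to 331 CPM in HCC827 and from 61.6 to 1892 CPM in H1975, so its increase was larger in H1975. TRIB3, a pseudokinase induced by ATF4 and CHOP, was at 32.4 and 152 CPM in HCC827 and at 73.7 and 538 CPM in H1975. SESN2, an inhibitor of mTORC1 during leucine shortage, was at 10.8 and 48.3 CPM in HCC827 and at 15.9 and 199 CPM in H1975. GDF15, a secreted stress cytokine, leaned the other way, with 18.5 and 289 CPM in HCC827 and 41.2 and 223 CPM in H1975. With library totals as the only scaling, DDIT3, ATF3 and PPP1R15A passed the test and TRIB3, SESN2 and GDF15 did not.

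The ATF4 mRNA itself did not pass: it was at 197 CPM with DMSO and 158 with AL-X in HCC827, and at 157 and 618 CPM in H1975 (edgeR adjusted p = 0.866). Of 23 genes for amino acid supply and tRNA charging, 0 were called, at medians of 0.46 and 0.95. Closest were SLC3A2, the shared heavy chain of amino acid transporters, with log2 folds of 2.32 in HCC827 and 2.58 in H1975 (edgeR adjusted p = 0.0674), and asparagine synthetase ASNS, with 1.38 and 3.84 (0.074).

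The promoter of ATF3 shows the kind of element through which ATF4 and CHOP are known to act. The letters TGATGNAA, searched on both strands from 250 bases before to 50 after the start, occurred in 3.67% of 27305 RefSeq promoters. They were in 3 of 14 promoters of the stress response list (21.4%) and in 6 of 18 of the amino acid list (33.3%), SLC3A2 and ASNS among them, but in 2 of 48 promoters of called higher genes (4.17%), close to the share of all promoters. The 250 bases before the ATF3 start are given with the match in capitals (RefSeq, GRCh38.p14, chr1:212565157-212565406, plus strand). A match is a description of letters and not evidence of binding.
ATF3: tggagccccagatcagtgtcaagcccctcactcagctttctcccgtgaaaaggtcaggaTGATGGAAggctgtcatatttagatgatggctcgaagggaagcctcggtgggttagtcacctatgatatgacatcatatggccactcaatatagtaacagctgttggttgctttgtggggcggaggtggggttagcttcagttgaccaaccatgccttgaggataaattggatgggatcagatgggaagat

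Most NRF2 target genes were higher in both lines as well. Of 29 members tested, 5 were called higher (HMOX1, OSGIN1, MAFF, MAFG and SRXN1) and 0 lower. Of the 24 at 5 CPM or more, 10 were at 2-fold or more higher in both lines, where 3.47% of all such genes were. Above 0 in both lines were 21 of the 24, against 3451 of all 11125 such genes. HMOX1 (chr22:35380361-35394214), the heme-degrading oxygenase, had very different baselines: it went from 9.17 to 1211 CPM in HCC827 and from 302 to 3581 CPM in H1975. The DMSO library of H1975 thus lay above that of HCC827 and below both AL-X libraries. Its shared log2 fold was 5.30 (SE 1.09, edgeR adjusted p = 0.0143).

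OSGIN1, an oxidative stress growth inhibitor, went from 4.05 to 196 CPM in HCC827 and from 11.2 to 91.7 CPM in H1975 (shared log2 fold 4.31, SE 0.68, edgeR adjusted p = 0.00151). SRXN1, the sulfiredoxin that repairs peroxiredoxins, rose from 47.7 to 273 CPM and from 65.3 to 295 CPM, nearly alike in the 2 lines. MAFF, a small MAF partner of NRF2, rose from 14.4 to 118 CPM in HCC827 and from 28.9 to 680 CPM in H1975. MAFG, another small MAF, had log2 folds of 2.14 and 2.29. HMOX1, SRXN1 and MAFG did not pass the test when library totals were the only scaling.

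The glutathione and iron storage members of the NRF2 list were uneven. The cystine carrier gene SLC7A11 was at 36.9 and 438 CPM in HCC827 but at 27.0 and 31.1 CPM in H1975. The glutamate-cysteine ligase modifier GCLM was at 72.9 and 793 CPM in HCC827 and at 39.4 and 110 CPM in H1975 (edgeR adjusted p = 0.0902). The ferritin light chain FTL had log2 folds of 3.52 in HCC827 and 1.43 in H1975, and the autophagy receptor SQSTM1 2.75 and 0.77. The quinone reductase NQO1 was closer, at 1.70 and 1.55, but did not pass (edgeR adjusted p = 0.338). Signs differed for GSR (1.16 in HCC827 and -0.47 in H1975), ABCC3 (0.29 and -0.42) and TKT (-0.53 and 1.17). They also differed for AKR1C1 (4.66 and -1.73), AKR1B10 (3.24 and -2.10) and ABCC2 (2.02 and -0.36), all under 5 CPM in H1975. The list median over the 24 members at 5 CPM or more was 1.79 in HCC827 and 1.16 in H1975.

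The antioxidant response element core, TGACNNNGC on either strand, occurred in 13.6% of the 27305 promoters. It was in 12 of 48 promoters of called higher genes (25%), PPP1R15A, TRIB3 and MAFF among them, and in 6 of 22 of the NRF2 list (27.3%). It was not particular to these: the share was 28.6% in the autophagy and lysosome list, 27.8% in the amino acid list, 23.1% in the replication and E2F list and 22.2% in the heat shock list. The promoter of MAFF is given because the gene carries the element and rose in both lines; capitals mark the match, read on the opposite strand (GRCh38.p14, chr22:38201744-38201993, plus strand).
MAFF: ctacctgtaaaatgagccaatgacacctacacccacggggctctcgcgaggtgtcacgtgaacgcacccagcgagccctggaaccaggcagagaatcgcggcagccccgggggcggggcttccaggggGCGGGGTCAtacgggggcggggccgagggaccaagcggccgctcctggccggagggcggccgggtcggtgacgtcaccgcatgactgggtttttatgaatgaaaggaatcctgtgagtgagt

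Some protein folding and lysosomal genes were called higher. Of 23 genes of the unfolded protein response, ERN1 and DNAJB9 were called higher, against 0.308% of all genes tested. Of the 22 at 5 CPM or more in both lines, 4 were at 2-fold or more higher in both and 0 lower in both. Of all such genes, 3.47% were higher in both. ERN1, the IRE1 sensor of the endoplasmic reticulum, went from 21.4 to 122 CPM in HCC827 and from 18.7 to 69.5 CPM in H1975. DNAJB9, an endoplasmic reticulum co-chaperone, went from 12.1 to 44.5 CPM and from 11.0 to 123 CPM. The main chaperone of the compartment, HSPA5 (BiP), had log2 folds of 1.43 and 2.04 and did not pass (edgeR adjusted p = 0.537).

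Of 26 autophagy and lysosome genes, MAP1LC3B and MCOLN1 were called higher, against 0.308% of all genes tested. MAP1LC3B, which encodes the autophagosome protein LC3B, went from 45.7 to 378 CPM in HCC827 and from 63.5 to 262 CPM in H1975. The lysosomal calcium channel gene MCOLN1 went from 17.0 to 124 CPM and from 17.0 to 69.0 CPM. Cathepsin L (CTSL) had log2 folds of 3.20 and 1.54 (edgeR adjusted p = 0.0964). All 25 members at 5 CPM or more were above 0 in HCC827 and 20 were in H1975, against 5655 and 6043 of all 11125 such genes. Of the 25, 7 were at 2-fold or more higher in both lines and 0 lower in both. Of all such genes, 3.47% were higher in both. The list medians were 1.11 in HCC827 and 0.77 in H1975.

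In the EGFR pathway no receptor passed the test, while HBEGF, DUSP5, EPHA2 and DUSP6 did. EGFR was at 4099 CPM with DMSO and 2565 with AL-X in HCC827, and at 483 and 334 CPM in H1975. Its log2 folds of -0.68 and -0.53 were alike in the 2 lines and did not pass (edgeR adjusted p = 0.966). Of the receptor and adaptor list 0 of 8 tested were called; ERBB3, the kinase-impaired partner, had log2 folds of -1.03 and -1.84 (edgeR adjusted p = 0.309).

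Of 8 EGF-family ligands tested, HBEGF was called higher, against 0.308% of all genes tested, and 0 were called lower. HBEGF went from 3.65 to 55.4 CPM in HCC827 and from 5.04 to 224 CPM in H1975 (shared log2 fold 4.70, SE 0.61, edgeR adjusted p = 0.00012). EREG and AREG, both EGFR ligands, pointed in opposite directions in the 2 lines. EREG was at 149 and 22.2 CPM in HCC827 and at 38.0 and 102 CPM in H1975, and AREG at 121 and 63.9 CPM and at 27.0 and 69.3 CPM.

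Among 20 genes of ERK output and feedback, DUSP5 and EPHA2 were called higher and DUSP6 lower. Over all genes tested, 0.308% were called higher and 0.369% lower. At 5 CPM or more in both lines were 19 list members, of which 4 were at 2-fold or more higher in both and 3 lower. Over all such genes, 3.47% were higher in both and 4.68% lower. DUSP5, a nuclear ERK phosphatase, went from 17.6 to 223 CPM in HCC827 and from 49.95 to 643 CPM in H1975, with log2 folds of 3.66 and 3.69. DUSP6, the cytoplasmic ERK phosphatase, moved the other way, from 150 to 50.1 CPM and from 26.1 to 1.36 CPM (shared log2 fold -2.91, SE 0.67, edgeR adjusted p = 0.0461). The 2 phosphatases of the same kinase therefore split in both lines. EPHA2, an ephrin receptor, went from 56.1 to 420 CPM and from 106 to 645 CPM. ETV1 (-2.65 and -2.11) and SPRED1 (-1.51 and -2.28) pointed down with DUSP6, and SPRY4 (1.43 and 2.41) and IER3 up with DUSP5, none past the test. DUSP6 and EPHA2 lost the call with library totals as the only scaling.

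**Figure D2:**
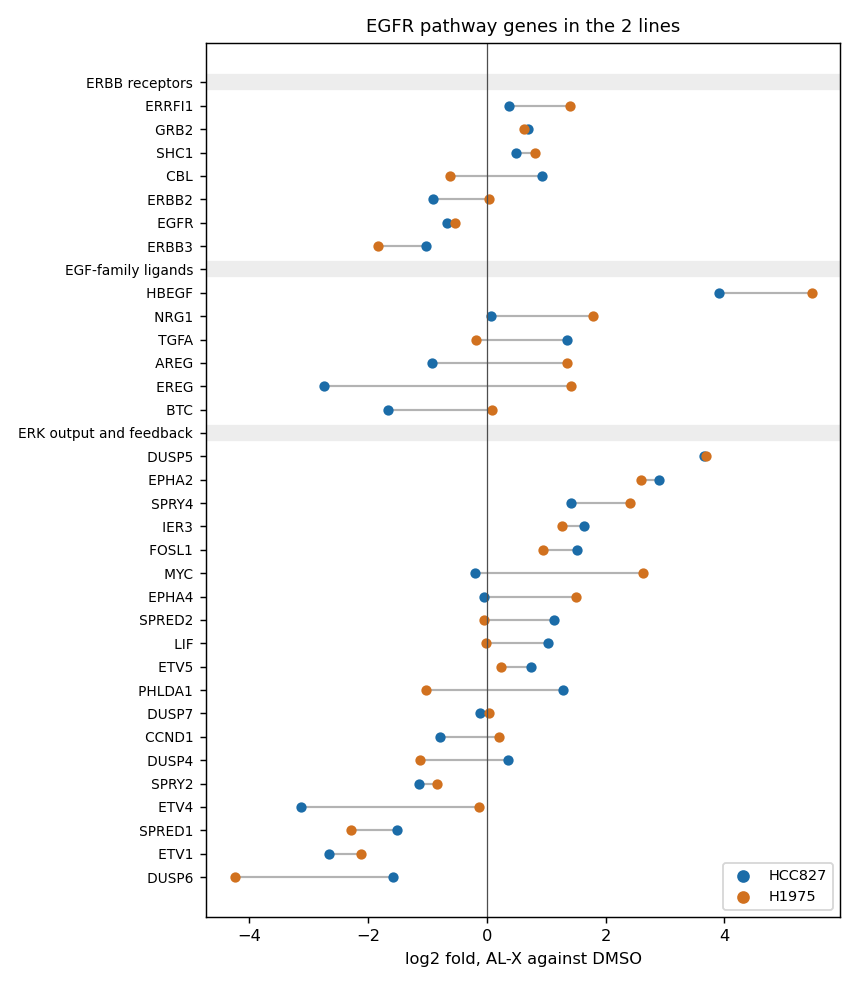
Log2 fold of TMM-scaled CPM, AL-X against DMSO, in HCC827 (blue) and H1975 (orange) for ERBB receptors with adaptors, EGF-family ligands, and ERK output genes with at least 5 CPM in both lines; a grey line joins the 2 values of a gene. HBEGF, DUSP5 and EPHA2 are far to the right in both lines and DUSP6 to the left, while EREG, AREG and MYC have their 2 points far apart.

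Of 23 p53 targets tested, 3 were called higher (CDKN1A, PLK2 and PLK3), against 0.308% of all genes tested, and 0 lower. Of the 19 at 5 CPM or more in both lines, 5 were at 2-fold or more higher in both and 0 lower in both. Of all such genes, 3.47% were higher in both. CDKN1A, the p21 inhibitor of cyclin-dependent kinases, went from 13.0 to 173 CPM in HCC827 and from 45.3 to 362 CPM in H1975 (shared log2 fold 3.36, SE 0.58, edgeR adjusted p = 0.00166). MDM2, the p53 target that degrades p53, was at 49.3 and 66.5 CPM in HCC827 and at 36.1 and 9.91 CPM in H1975. Over the 19 members at 5 CPM or more in both lines, the medians were 0.70 in HCC827 and 0.37 in H1975. That of H1975 was -0.09 with library totals as the only scaling.

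CCN2, a matrix-associated growth factor and YAP target, went from 2.60 to 45.8 CPM in HCC827 and from 2.14 to 301 CPM in H1975 (shared log2 fold 5.63, SE 0.77, edgeR adjusted p = 0.000804). It was the only one of 18 YAP and TEAD targets called, at medians of 0.03 in HCC827 and 0.41 in H1975. Over the 16 at 5 CPM or more in both lines, the medians were 0.03 and 0.05. Of these 16, 4 were at 2-fold or more higher in both lines (3.47% of all such genes) and 0 lower in both. Besides CCN2 they were CCN1 (1.14 and 4.78), LATS2 (1.93 and 1.56) and GADD45B (1.66 and 5.93). SNAI1, a transcriptional repressor of E-cadherin, went from 4.67 to 64.1 CPM and from 29.3 to 755 CPM. E-cadherin (CDH1) was at 454 and 703 CPM in HCC827 and at 648 and 674 CPM in H1975, so it was not lower with AL-X in either line. Of 15 mesenchymal genes tested, SNAI1 was the one called.

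TNFSF9, the 4-1BB ligand, went from 7.51 to 55.3 CPM in HCC827 and from 9.97 to 597 CPM in H1975. MICA, a stress ligand of the NKG2D receptor on natural killer cells, went from 11.4 to 47.5 CPM and from 11.7 to 102 CPM. The cytokine IL11 went from 1.38 to 10.9 CPM and from 15.5 to 109 CPM. MAP3K14, the NF-kB-inducing kinase, rose almost equally, with log2 folds of 3.54 and 3.49. Other called higher genes were DUSP1, ID2, CSRNP1, SERTAD1, NOCT, MXD1, HES4 and ZFAND2A, with shared log2 folds of 2.39 (MXD1) to 4.13 (SERTAD1).

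A few calls among the 65 rest on sparse or shared reads. HSPE1-MOB4, a readthrough transcript that overlaps its partner genes, had 0 counts in both DMSO libraries and 243 and 164 counts with AL-X, at least 98.9-fold higher in HCC827 and at least 70.0-fold in H1975 against a floor of 3 counts per library. The homeobox gene MSX1 had 0 and 32 counts in HCC827, at least 13.0-fold higher, against 1010 and 6933 counts in H1975. RN7SK, a small nuclear RNA that holds the elongation factor P-TEFb inactive and normally lacks a poly(A) tail, was at 6.47 and 33.1 CPM and at 1.91 and 45.9 CPM.

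Among the called higher genes were 3 host genes of microRNAs. MIR22HG went from 10.5 to 153 CPM in HCC827 and from 9.68 to 175 CPM in H1975, so the 4 libraries formed 2 matching pairs (shared log2 fold 4.02, SE 0.56, edgeR adjusted p = 0.000171). MIR23AHG went from 6.61 to 75.4 CPM and from 10.8 to 88.5 CPM, and MIRLET7A1HG from 7.03 to 26.7 CPM and from 5.36 to 128 CPM. The libraries count host transcripts, and the mature microRNAs were not measured. The main arms encoded within these hosts are given with the seed, bases 2 to 8, in capitals (RefSeq, GRCh38.p14). The let-7 members share one seed, GAGGUAG, while miR-22, miR-23a, miR-27a and miR-24 each have their own.
hsa-miR-22-3p: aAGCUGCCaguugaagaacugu
hsa-miR-23a-3p: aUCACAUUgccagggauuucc
hsa-miR-27a-3p: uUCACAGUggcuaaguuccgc
hsa-miR-24-3p: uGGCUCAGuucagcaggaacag
hsa-let-7a-5p: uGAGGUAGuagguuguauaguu
hsa-let-7f-5p: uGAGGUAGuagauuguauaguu
hsa-let-7d-5p: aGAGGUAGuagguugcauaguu

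Transcripts of the mitochondrial genome made up 18 of the 78 called lower genes: all 13 mRNAs, which encode respiratory chain and ATP synthase subunits, and 5 tRNAs. A further 4 were nuclear copies of these genes, whose reads cannot be told from the originals. The share of counts on mitochondrial genes was 6.69% with DMSO and 0.656% with AL-X in HCC827, and 6.41% and 0.0535% in H1975. MT-CO1, a catalytic subunit of cytochrome oxidase, went from 15261 to 129 CPM in HCC827 and from 16706 to 25.4 CPM in H1975. All 13 mRNAs had the larger fall in H1975, with list medians of -5.87 and -8.17.

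In HCC827 the mitochondrial rRNA MT-RNR1 was not lower (log2 fold 0.21). MT-RNR2 was lower there (-1.69), but by less than any mitochondrial mRNA (-4.29 or below). MT-RNR1 was at 1373 and 1584 CPM in HCC827 and at 655 and 92.2 CPM in H1975, and MT-RNR2 at 10963 and 3388 CPM and at 5949 and 350 CPM; neither was called (edgeR adjusted p = 0.798 and 0.435). None of 19 nuclear genes for mitochondrial transcription and RNA turnover was called, among them POLRMT, at 51.0 and 56.7 CPM in HCC827 and 73.9 and 64.8 CPM in H1975. The 27 nuclear respiratory chain genes had 0 calls as well, at medians of -0.09 and 0.78.

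Of 12 chemokine genes tested, CCL20 and CXCL2 were called lower, against 0.369% of all genes tested, and 0 higher. CCL20 (chr2:227805739-227817564), which draws lymphocytes and dendritic cells, was at 21.03 and 0.0558 CPM in HCC827 and at 1.65 and 0 CPM in H1975. In H1975 its 190 counts became 0, at least 49.5-fold lower against a floor of 3 counts. CXCL2, a neutrophil chemokine, went from 31.2 to 1.16 CPM in HCC827 and from 8.29 to 0.0668 CPM in H1975 (shared log2 fold -5.72, SE 0.97, edgeR adjusted p = 0.00151). Its neighbour CXCL1 was lower in both libraries with AL-X, at 63.8 and 0.102 CPM and at 6.99 and 0.623 CPM. Its folds of -9.05 and -3.45 were far apart, and it did not pass (edgeR adjusted p = 0.309).

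Of 22 NF-kB subunit, feedback and cytokine genes tested, 0 were called, with medians of -1.35 in HCC827 and -0.37 in H1975. Over the 14 of them at 5 CPM or more in both lines, the medians were -0.85 and -0.13. Of the 14, 3 were at 2-fold or more lower in both lines (4.68% of all such genes) and 1 higher in both (3.47%). The 1 higher was NFKBIE, with log2 folds of 1.63 and 1.15. RELB (1.47 and 0.93) and RELA (1.09 and 0.68) were also above 0 in both lines, and 6 members were below 0 in both. The inhibitor gene NFKBIA, itself an NF-kB target, was at 209 and 35.8 CPM in HCC827 and at 108 and 38.3 CPM in H1975 (edgeR adjusted p = 0.0836). From the survival gene list, BIRC3, an inhibitor of apoptosis that NF-kB induces, went from 49.6 to 12.5 CPM and from 10.6 to 0.367 CPM (edgeR adjusted p = 0.0468), a call lost with library totals, DESeq2 size factors or limma-voom.

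The promoters of CXCL1 and CXCL2 hold the same NF-kB letters at nearly the same distance from the start, 79 and 78 bases before it. This NF-kB motif, searched as the letters in capitals and in a form that differs from them by 1 letter, was in 5 of 9 chemokine promoters (55.6%) and in 0.355% of 27305 promoters, with both strands searched. Capitals mark the match (GRCh38.p14, chr4:73869143-73869392, plus strand, for CXCL1 and chr4:74099196-74099445, minus strand, for CXCL2). The pair is shown because its sequences are near copies while the folds of the 2 genes differ in order between the lines.
CXCL1: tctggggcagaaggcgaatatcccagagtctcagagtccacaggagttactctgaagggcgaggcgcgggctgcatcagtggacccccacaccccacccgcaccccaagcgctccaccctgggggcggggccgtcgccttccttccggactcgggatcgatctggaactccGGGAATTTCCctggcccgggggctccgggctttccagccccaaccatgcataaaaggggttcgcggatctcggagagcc
CXCL2: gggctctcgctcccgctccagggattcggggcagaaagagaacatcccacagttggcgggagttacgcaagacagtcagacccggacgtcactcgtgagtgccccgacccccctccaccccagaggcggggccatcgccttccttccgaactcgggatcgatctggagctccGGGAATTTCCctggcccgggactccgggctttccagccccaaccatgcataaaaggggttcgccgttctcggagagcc

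The other 56 called lower genes were nuclear, and 42 of them had at least 5 CPM in both lines. Several encode transcription factors, which were picked out here after their values were seen. NKX2-1 (chr14:36516392-36521149), the lung lineage factor, went from 278 to 47.1 CPM in HCC827 and from 154 to 21.2 CPM in H1975 (shared log2 fold -2.71, SE 0.54, edgeR adjusted p = 0.0101). SOX4 went from 241 to 42.9 CPM and from 84.4 to 6.92 CPM, and NFIB, a regulator of lung development, from 82.2 to 15.5 CPM and from 66.2 to 9.74 CPM. The epithelial factor EHF went from 86.4 to 5.99 CPM and from 13.4 to 2.41 CPM. SOX21 went from 8.41 to 0.0279 CPM and from 11.9 to 0.312 CPM, near 0 in both AL-X libraries.

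Of 12 members tested in the lung lineage list, NKX2-1 and SFTPA1 were called lower, against 0.369% of all genes tested. In both lines, 4 of its 16 members reached 5 CPM. SFTPA1, a surfactant protein gene with a near-identical copy, went from 75.8 to 0.669 CPM in HCC827 and had 7 and 0 counts in H1975, so its call rests on HCC827. The same held for SOX2, FAM20A, HHLA2, NRK, KRT16P1 and KRT4, which with SFTPA1 and MUC5B were under 1 CPM in both H1975 libraries. NAPSA, an aspartic protease under NKX2-1, was at 128 and 57.1 CPM in HCC827 and at 7.18 and 15.1 CPM in H1975. The mucin MUC1 also differed in sign, with log2 folds of -1.12 and 0.36. LPCAT1, a surfactant lipid enzyme, was at 1143 and 214 CPM and at 963 and 516 CPM (edgeR adjusted p = 0.51).

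IRS1, the adaptor of the insulin receptor, went from 197 to 39.3 CPM in HCC827 and from 163 to 35.1 CPM in H1975, with nearly equal folds. PIK3R3, a regulatory subunit of PI3-kinase, had log2 folds of -2.31 and -2.36, and LGR4, a receptor for R-spondins, -2.38 and -2.19. TXNIP, a thioredoxin-binding protein that restrains glucose uptake, went from 98.4 to 19.3 CPM and from 318 to 25.1 CPM. BMF, a BH3-only cell death gene, went from 113 to 17.1 CPM and from 14.3 to 0.323 CPM. It fell while its relatives PMAIP1 (1.08 and 1.74), BBC3 (1.5 and 1.6) and BCL2L11 (0.50 and 0.41) had positive folds that did not pass. Of these, TXNIP, BMF, IRS1, LGR4 and PIK3R3 lost the call when scaled by library totals, at edgeR adjusted p of 0.0504 (TXNIP) to 0.128 (PIK3R3).

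CIITA, the master activator of MHC class II, went from 1.78 to 0.0093 CPM in HCC827 and from 47.6 to 5.60 CPM in H1975. HCP5, a noncoding RNA of the MHC region, went from 33.0 to 1.75 CPM and from 46.9 to 2.86 CPM (shared log2 fold -4.14, SE 0.68, edgeR adjusted p = 0.00131). The membrane mucin MUC4 went from 395 to 89.6 CPM and from 6.45 to 0.512 CPM, and the sodium channel subunit SCNN1A from 242 to 52.0 CPM and from 34.2 to 8.12 CPM. ASPM, a spindle pole protein, was the one called of 27 mitotic genes, at 249 and 37.7 CPM and at 153 and 26.4 CPM.

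**Figure D3:**
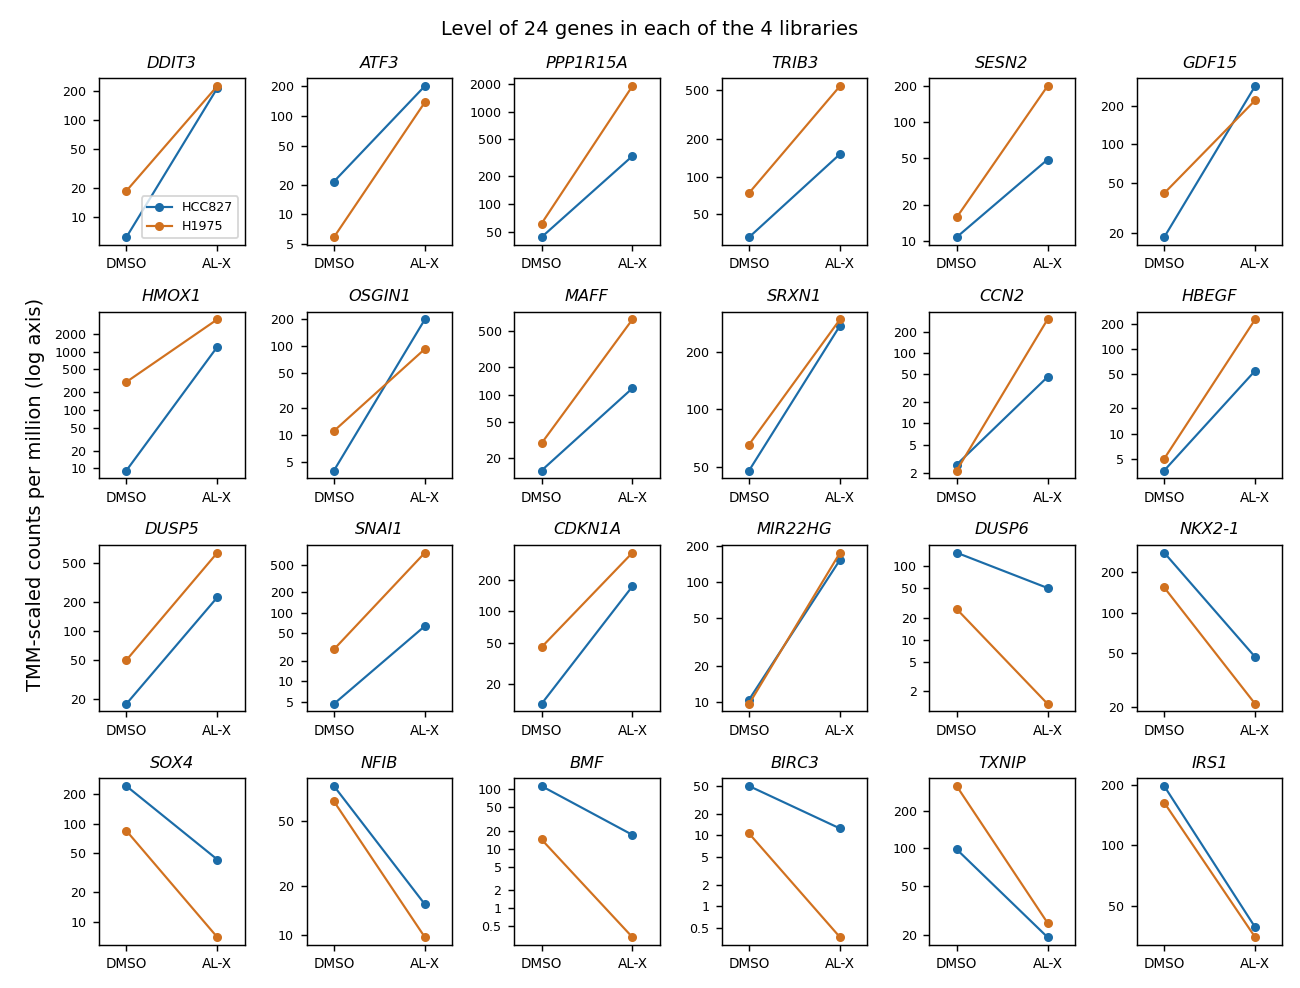
TMM-scaled CPM (log axis, different for each gene) of 24 called genes in the DMSO and AL-X libraries of HCC827 (blue) and H1975 (orange); each point is 1 library. Lines rise in the first 16 panels and fall in the last 8, with near-identical pairs for MIR22HG and IRS1 and unequal slopes for HMOX1 and DUSP6.

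The lines shared part of their response by size alone. At 2-fold and 5 CPM, 1181 genes were higher and 1593 lower in HCC827 (10.6% and 14.3% of 11125), and 1799 higher and 1818 lower in H1975 (16.2% and 16.3%). Both lines had 386 genes higher (3.47%), 32.7% of those of HCC827 and 21.5% of those of H1975. Both had 521 lower (4.68%), 32.7% and 28.7% of each. In opposite directions, 130 genes were higher in HCC827 and lower in H1975 (1.17%), and 106 the reverse (0.953%). Any sign was shared by 56.9% of the genes, and the folds of the 2 lines had a Pearson r of 0.344 across the 11125 genes, which share libraries and are not independent. With 1 library per line and treatment, a difference between the lines leaves no degree of freedom, so the values of the following paragraphs are descriptions with no test. With library totals as the only scaling, the both-line counts were 276 higher and 731 lower, and the median over all genes in H1975 moved from 0.12 to -0.35.

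Most cell division genes were lower in HCC827, and fewer were in H1975. Of 30 replication and E2F target genes, 29 had the higher fold in H1975, against 6060 of all 11125 genes at 5 CPM. The medians were -1.42 in HCC827 and 0.37 in H1975 (-0.09 with library totals). RRM2, a subunit of ribonucleotide reductase, was at 176 and 42.0 CPM in HCC827 and at 246 and 386 CPM in H1975. CDK1, the mitotic kinase, was at 62.9 and 12.6 CPM and at 94.1 and 188 CPM. Of 27 mitotic genes, 18 were at 2-fold or more lower in HCC827 and 4 in H1975, with medians of -1.46 and -0.12. Of all 11125 genes at 5 CPM, 14.3% were lower in HCC827 and 16.3% in H1975, so the H1975 count was near that share. E2F2 (-2.87 and -3.83), CENPF (-1.50 and -1.82) and CENPE (-1.83 and -1.29) were lower in both.

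CDKN2B, the p15 inhibitor of CDK4 and CDK6, was past 2-fold in HCC827 only, at 16.8 and 228 CPM, against 15.8 and 18.6 CPM in H1975. Replication-dependent histone genes, whose mRNAs normally lack a poly(A) tail, were higher in HCC827, with a median of 1.64 over 8 members, and at -0.51 in H1975. In HCC827 they thus pointed away from the other replication genes.

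Translation genes had higher folds in H1975 too. Over all 11125 genes at 5 CPM, 6060 had the higher fold in H1975. All 30 cytosolic ribosomal protein genes had the higher fold in H1975, with medians of -0.40 in HCC827 and 1.36 in H1975. The 19 ribosome biogenesis genes did the same, at -0.37 and 1.16, and so did all 26 proteasome genes, at 0.33 and 1.17. NOP56, a nucleolar protein of rRNA modification, was at 186 and 145 CPM in HCC827 and at 143 and 629 CPM in H1975. MYC, a driver of ribosome genes, was at 377 and 329 CPM and at 252 and 1560 CPM. The median exonic length was 3444 bases over the ribosomal protein genes and 3424 over the proteasome genes, against 5217 over all genes; the part of the length trend of the H1975 libraries in these medians was not tested.

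Most heat shock genes had higher folds in H1975. Of 17 heat shock genes, 14 were at 2-fold or more higher in H1975 and 3 in HCC827, at medians of 2.01 and 0.17. Over all 11125 genes at 5 CPM, 16.2% were higher in H1975 and 10.6% in HCC827. At 2-fold or more lower were 1 of the 17 in H1975 and 3 in HCC827, against 16.3% and 14.3% of all genes. HSPA1A, the inducible HSP70 whose reads cannot be told from those of HSPA1B, was at 227 and 494 CPM in HCC827 and at 268 and 6089 CPM in H1975. The median exonic length of the list was 2980 bases, also below that of all genes, and its part in the result was not tested. HSPA8, the constitutive HSP70, was at 1805 and 903 CPM and at 1047 and 10099 CPM. DNAJB1, their co-chaperone, was at 93.8 and 172 CPM and at 133 and 2418 CPM.

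FOS and FOSB, subunits of AP-1, were higher in both lines with unequal size. FOS was at 5.41 and 20.8 CPM in HCC827 and at 3.97 and 1061 CPM in H1975, and FOSB at 1.48 and 14.7 CPM and at 0.322 and 144 CPM. EGR1 parted wholly, at 43.7 and 46.8 CPM and at 35.1 and 2002 CPM. JUN went against FOS and FOSB in H1975, at 105 and 53.4 CPM, where HCC827 had 152 and 308 CPM. JUNB (1.00 and 0.05) and KLF6 (0.41 and -0.01) also had the lower fold in H1975. None of the 21 immediate-early genes tested was called, at medians of 0.88 in HCC827 and 1.84 in H1975. Over the 13 at 5 CPM or more in both lines, the medians were 1.02 and 2.01, and the median exonic length was 3238 bases.

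Sterol synthesis and interferon genes had medians below 0 in HCC827 and above 0 in H1975. All 21 sterol genes had the higher fold in H1975 (against 6060 of all 11125 genes at 5 CPM), with medians of -0.75 and 0.50. INSIG1, which restrains sterol synthesis, was at 177 and 81.4 CPM in HCC827 and at 183 and 1070 CPM in H1975. Interferon-stimulated genes had medians of -0.90 and 0.21 over 21 members, and that of H1975 was -0.25 with library totals. Of the 21, 3 were at 2-fold or more lower in both lines (4.68% of all genes) and 1 higher in both (3.47%). Lower were IFI44L (-4.89 and -1.08), XAF1 (-4.42 and -1.37) and OAS1 (-2.20 and -1.31), and IRF7 (1.57 and 1.72) was higher. ISG15 was above 0 in both (0.86 and 1.28), and BST2 differed in sign (-4.22 and 0.48). In both lines 9 members were below 0 and 4 above 0.

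**Figure D4:**
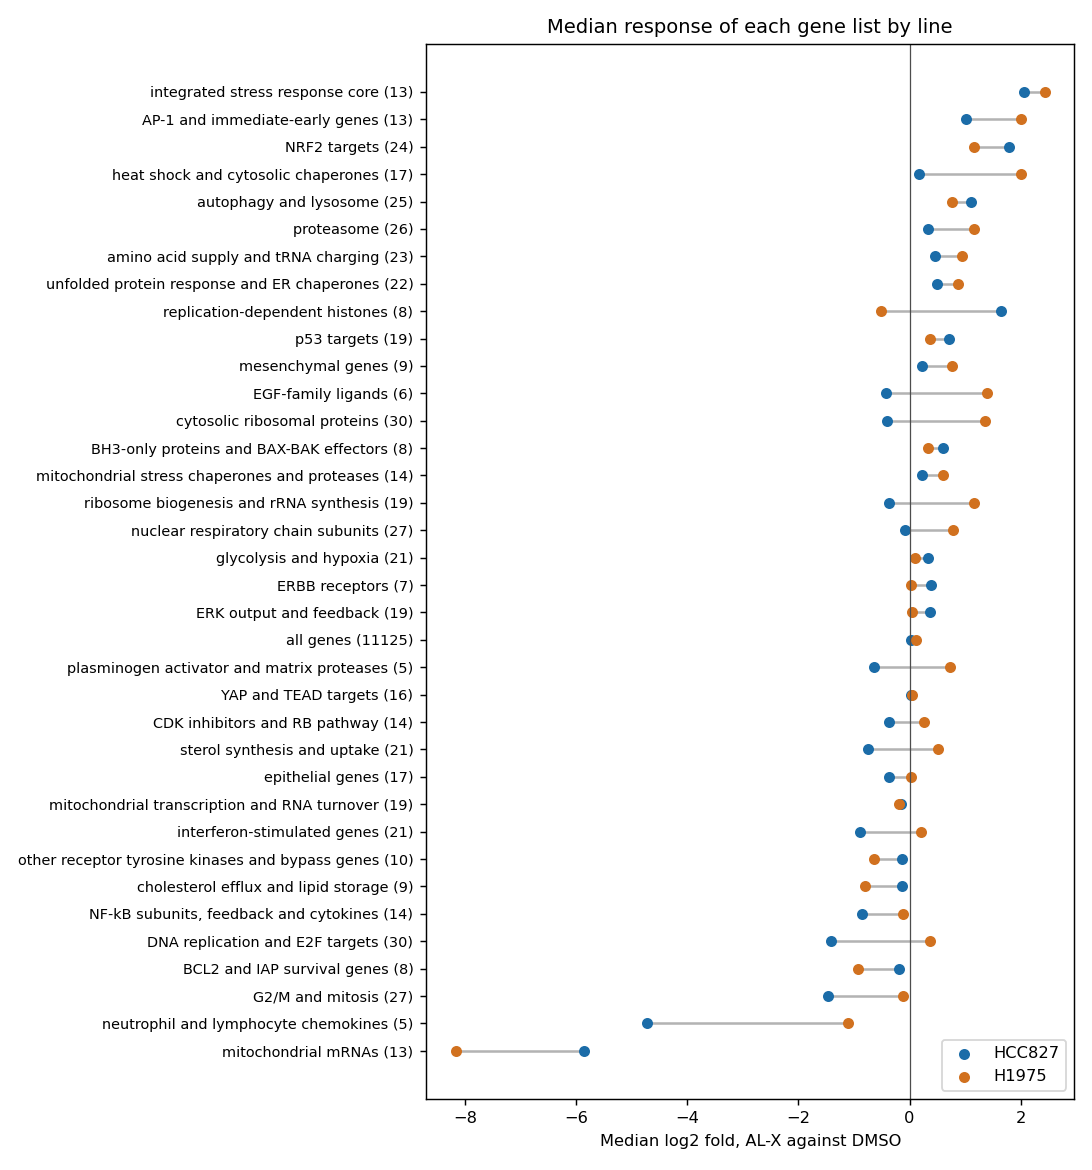
Median log2 fold, AL-X against DMSO, of each gene list in HCC827 (blue) and H1975 (orange), over the members with at least 5 CPM in both lines (their number in brackets) and over all 11125 such genes; lists with fewer than 5 such members are left out. The stress response, NRF2 and mitochondrial mRNA medians lie on one side of 0 in both lines, whereas ribosomal proteins, E2F targets and histones have their 2 medians on opposite sides.

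PTGS2 (chr1:186671791-186680427), the inducible cyclooxygenase, was at 33.4 and 1.12 CPM in HCC827 and at 0.965 and 17.4 CPM in H1975, log2 folds of -4.88 and 4.15. SOCS3, an inhibitor of JAK and STAT signalling, was at 24.3 and 2.65 CPM and at 17.1 and 152 CPM. NFKBIZ, a nuclear co-regulator of NF-kB, was at 149 and 63.9 CPM and at 38.0 and 444 CPM. CXCL8 parted from CXCL2: it was at 62.3 and 2.81 CPM in HCC827 and at 23.6 and 20.7 CPM in H1975.

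The reverse pattern was led by a noncoding RNA. LUCAT1, a stress-responsive long noncoding RNA, was at 47.5 and 281 CPM in HCC827 and at 64.8 and 3.99 CPM in H1975, log2 folds of 2.57 and -4.01. TLCD2, which acts in membrane lipid composition, was at 13.4 and 179 CPM and at 12.8 and 3.28 CPM. EPHB3, an ephrin receptor, was at 4.77 and 19.4 CPM and at 17.9 and 4.52 CPM, so the AL-X library of each line came close to the DMSO library of the other. SENP3-EIF4A1 and RPL4P4, on the opposite side, are a readthrough transcript and a pseudogene whose reads overlap other genes.

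Genes past 2-fold in 1 line with a log2 fold under 0.25 in size in the other numbered 197 higher (1.77%) and 268 lower (2.41%) in HCC827, and 395 higher (3.55%) and 341 lower (3.07%) in H1975. IL6R, the interleukin-6 receptor, was at 42.3 and 292 CPM in HCC827 and at 27.1 and 27.7 CPM in H1975. CYP24A1, the vitamin D hydroxylase, was at 30.2 and 2.41 CPM in HCC827 and at 22.8 and 25.2 CPM in H1975. MCL1, an anti-apoptotic BCL2 relative, was at 332 and 310 CPM in HCC827 and at 289 and 1995 CPM in H1975. MIR34AHG, the host of miR-34a, was at 11.2 and 10.1 CPM in HCC827 and at 13.7 and 0.423 CPM in H1975.

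**Figure D5:**
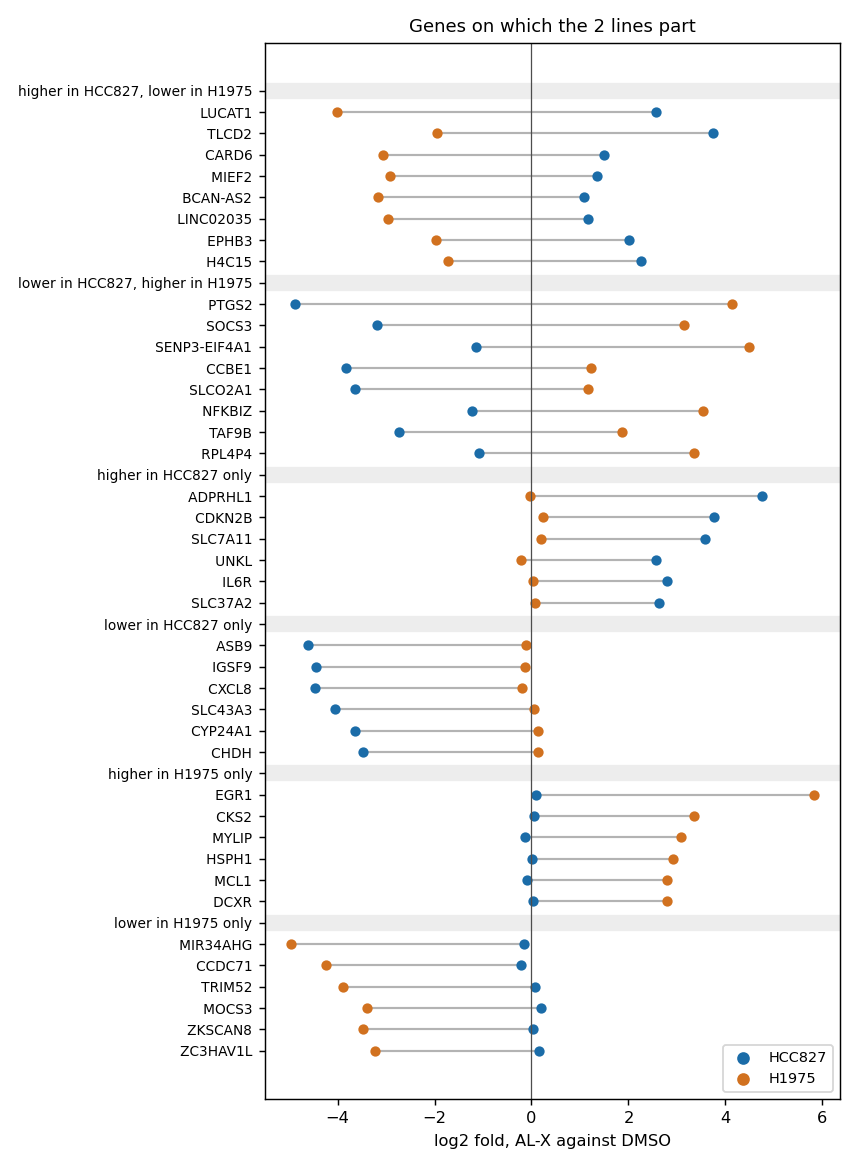
Log2 fold of TMM-scaled CPM, AL-X against DMSO, in HCC827 (blue) and H1975 (orange) for the genes named under the rules for opposite directions (up to 8 each way) and for change in 1 line only (up to 6 per line and direction), grouped by grey bars; a line joins the 2 values of a gene. PTGS2 spans the widest gap, and EGR1 and ADPRHL1 sit near 0 in one line and far to the right in the other.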

How the data were processed

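RNA came from Trizol extracts and went into SureSelect XT HS2 mRNA libraries, per the labels' protocols. The table the authors deposited holds raw counts of reads for 60671 Ensembl genes, of which 60401 matched a symbol and 58453 a GENCODE 29 position. The submitters' processing notes name bcl2fastq 2.20 and GRCh38; aligner, counter, annotation and strand setting were not given in the sources used here, so reads of overlapping genes may be shared.

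The members, the 39 gene lists and the rules for named genes were chosen with earlier results of these data known. Of 719 list entries, 3 were not matched and 590 had at least 5 CPM in the higher library of each line.

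The shared effect was fitted in R 4.3.3 by the robust quasi-likelihood test of edgeR 4.0.16 (filterByExpr, TMM, terms for line and treatment, 1 residual degree of freedom) with Benjamini-Hochberg adjustment at 0.05. The line entered as a block because the cell line label pairs the libraries; deviations of the 2 libraries of a line from their treatment means correlated at 0.435 over 11125 genes. The p-values reflect how far the lines disagree, which may be partly technical, in the gene itself and in the trend over genes. Within a line, log2 folds of TMM-scaled CPM with a prior count of 2 carry no test. Folds against a library at 0 counts are bounds against a floor of 3 counts, and cover counting error only. Differences between lines have no residual degree of freedom.

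Genes were named as follows: up to 15 higher and 15 lower by shared fold among called genes with a symbol and a mean of at least 5 CPM; up to 12 each way by the smaller fold at 2-fold in both lines; up to 8 in each opposite direction and 6 per line and direction changed in that line only (at least 10 CPM); up to 3 from either end of each list; and 41 fixed genes. Further called genes and list members, and the transcription factors, were chosen after their values were seen. Promoter and microRNA sequences are from RefSeq (GRCh38.p14). Alternatives were DESeq2 1.42.0 and its size factors, limma-voom (limma 3.58.1), library totals, mitochondrial genes left out, other filters, no robust shrinkage, no block, each library or line left out, and other fold, CPM and prior settings. A549 was not analysed here.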

Additional observations from a re-analysis of the deposited data

Results flagged for a closer look

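Each of the following had folds of opposite sign in the 2 lines, given as the log2 fold in HCC827 minus that in H1975; with 1 pair of libraries per line, none of the differences was tested. Higher in HCC827 and lower in H1975 were LUCAT1 (6.58), TLCD2 (5.69), the caspase recruitment protein gene CARD6 (4.58), the mitochondrial dynamics gene MIEF2 (4.27), BCAN-AS2 (4.26), LINC02035 (4.12), EPHB3 (4) and the histone gene H4C15 (3.99). Lower in HCC827 and higher in H1975 were PTGS2 (-9.03), SOCS3 (-6.34), SENP3-EIF4A1 (-5.64), the lymphatic growth gene CCBE1 (-5.05), the prostaglandin carrier gene SLCO2A1 (-4.82), NFKBIZ (-4.76), TAF9B (-4.6) and RPL4P4 (-4.43).

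For 8 gene lists the medians had opposite signs and were at least 0.25 from 0 in each line. They differed by -1.81 for EGF-family ligands, -1.79 for replication and E2F targets, -1.76 for cytosolic ribosomal proteins, -1.53 for ribosome biogenesis, -1.38 for plasminogen activators and matrix proteases, -1.25 for sterol synthesis and -0.624 for CDK inhibitors with the RB pathway, and by 2.15 for replication-dependent histones.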

How the results depend on the processing

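Counts of called genes (65 higher, 78 lower in edgeR) were within 1.5 times of these with DESeq2 size factors, with mitochondrial genes left out, with a 1 CPM filter and without robust shrinkage. They were 21 and 35 with library totals only, 0 and 0 without a filter, and 0 and 0 with no replicate block, the cell line being what pairs the libraries. DESeq2 called 199 and 380, which include all 143, and limma-voom 124 and 162, which include 65 and 74 of them. Without the block and leaving out 1 library each, higher calls ranged from 0 to 0 and lower calls from 0 to 4; leaving out a line with the block leaves no residual degree of freedom. Each fit without 1 library sets both libraries of 1 treatment against a single library of the other. Its folds therefore also hold the difference between the lines. In those fits 13 named folds reversed. Without the HCC827 DMSO library these were FAM20A (3.81), HHLA2 (4.67), SFTPA1 (2.37), NRK (6.06), ABCA12 (0.97), MUC4 (2.73), KRT4 (1.11), SOX2 (1.2), KCNQ3 (2.84), B3GNT6 (0.34) and KRT16P1 (2.29); the others were MSX1 (-3.95) without the H1975 AL-X library and CIITA (0.64) without the H1975 DMSO library. At 4-fold in place of 2-fold, genes changed in both lines were 61 higher and 100 lower, opposite genes 9 (higher in HCC827) and 5, and genes of 1 line 29 higher and 61 lower in HCC827 and 25 higher and 94 lower in H1975. With a minimum of 1 CPM, 915 were lower in both and 335 and 160 opposite. With 20 CPM, 254 were lower in both, 39 and 62 opposite, and 121 higher and 158 lower in HCC827 only and 212 lower in H1975 only. With library totals only, opposite genes were 259 and 34, those lower in HCC827 only 178, and those of H1975 only 118 higher and 606 lower; higher calls among all 2-fold genes of H1975 went from 49.7% to 19.5%, and in both lines from 42.6% to 27.4%. That scaling also turned the H1975 medians of ERBB receptors (-0.42), ERK output (-0.41), E2F targets (-0.09), CDK inhibitors (-0.20), p53 targets (-0.09), BH3-only genes (-0.12), interferon genes (-0.25), glycolysis (-0.36), YAP targets (-0.41) and epithelial genes (-0.42) below 0. The cause of these shifts was not tested. Depth limits the genes with few counts in a line, named as such above.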
